A study of Mus musculus with 9 samples.

Results

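The genes described here are 40 genes of cholesterol synthesis, sterol sensing, fatty acid synthesis, lipid droplets and cholesterol efflux. They were chosen by gene symbol, with earlier results of these data known, and all 40 were found among the 54146 genes of the deposited table. All 40 also passed the filter on low counts, which left 15886 genes for testing. By role, 16 act in the mevalonate and sterol pathway, 6 in sterol sensing and transport, 9 in fatty acid synthesis and desaturation, 4 in triglyceride synthesis and droplet coating, and 5 in the liver X receptor and efflux pathway.

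The RNA came from eosinophils, white blood cells of allergy and of damaged tissue, sorted out of the infiltrated quadriceps of adult mice. The sort kept live cells with CD45 and Siglec-F on their surface and without CD11c, Gr1 or MHC class II. The 9 libraries form 3 groups of 3 that the design text calls biological replicates. IL5Tg mice carry an interleukin-5 transgene, the cytokine that expands eosinophils. The mdx mice lack dystrophin and model Duchenne muscular dystrophy, and mdx_IL5Tg mice carry both the mutation and the transgene. A strain label of mdx on every sample conflicts with the IL5Tg titles, and groups follow the titles. The promoter of the transgene, the exact age of the animals and any pooling of them were not given in the sources used here. In bulk libraries such as these, fewer cells of a type and less RNA per cell cannot be told apart.

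Cells build cholesterol from acetyl-CoA through mevalonate, farnesyl diphosphate, squalene and lanosterol. When membrane sterols run low, the escort protein Scap carries SREBP transcription factors, encoded by Srebf1 and Srebf2, to the Golgi, where they are cut free to switch on synthesis genes. Insig proteins hold that complex back when sterols are plentiful, and the liver X receptors, which bind oxidised sterols, switch on efflux pumps such as Abca1. Fatty acids that are not used for membranes or energy are esterified by Dgat enzymes and stored in droplets coated by perilipins, which granulocytes also use as sites of lipid mediator synthesis.

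Promoters of the sterol genes are shown first, because cholesterol synthesis genes are known to share promoter elements. RefSeq windows (GRCm38.p6) from 250 bases before to 50 bases after the start site were matched by symbol for 30 of the 40 genes. For the 6 of these genes with more than 1 window, the first listed was counted. The CCAAT box, searched as CCAAT on both strands, was present in 12 of the 13 sterol synthesis windows (92.3%). The exception was Dhcr7, which had 2 CCAAT boxes in another of its 3 windows. Across all 32851 windows in the table it was present in 37.4%, and in the first-listed window of 17492 protein-coding genes in 39%. The core of the sterol response element, searched as TCACNCCAC on both strands, was found in 1 of these 13 windows, that of Hmgcs1, and in 1.24% of all windows. Only this spelling, with N for any base, was searched and is marked below. A window without a match may therefore hold the element in another spelling. In the stretches below, which cover the 180 bases before each start site 5′ to 3′ on the gene's strand, capitals mark the CCAAT box (ATTGG where it lies on the opposite strand) and the sterol response element core. They are from chr13:119690171-119690350 on the plus strand for Hmgcs1 and, on the minus strand, chr5:4104698-4104877 for Cyp51, chr8:64733579-64733758 for Msmo1, chr1:169969206-169969385 for Hsd17b7 and chr9:42264301-42264480 for Sc5d. Hmgcs1 is shown because it was not called in any comparison, and the other 4 because they fell in mdx.
Hmgcs1: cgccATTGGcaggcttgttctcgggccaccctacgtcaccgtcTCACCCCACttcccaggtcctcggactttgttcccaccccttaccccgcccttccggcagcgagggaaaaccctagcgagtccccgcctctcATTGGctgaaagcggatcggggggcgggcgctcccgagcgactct
Cyp51: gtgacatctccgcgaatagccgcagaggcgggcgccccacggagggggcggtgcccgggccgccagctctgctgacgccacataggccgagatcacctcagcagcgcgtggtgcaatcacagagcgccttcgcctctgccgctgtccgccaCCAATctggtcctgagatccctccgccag
Msmo1: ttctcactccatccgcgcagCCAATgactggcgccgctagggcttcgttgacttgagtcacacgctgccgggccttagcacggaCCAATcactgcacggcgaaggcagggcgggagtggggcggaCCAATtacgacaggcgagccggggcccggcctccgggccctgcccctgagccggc
Hsd17b7: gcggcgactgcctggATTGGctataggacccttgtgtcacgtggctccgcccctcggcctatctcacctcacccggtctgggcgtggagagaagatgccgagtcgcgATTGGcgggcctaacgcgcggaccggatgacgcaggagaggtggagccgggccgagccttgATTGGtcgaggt
Sc5d: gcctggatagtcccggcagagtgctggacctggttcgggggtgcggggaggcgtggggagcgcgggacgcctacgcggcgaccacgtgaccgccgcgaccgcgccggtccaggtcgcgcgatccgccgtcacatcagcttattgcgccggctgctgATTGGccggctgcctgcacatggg

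Msmo1 and Hsd17b7 each held 3 CCAAT boxes in the stretch shown, and Cyp51 and Sc5d held 1 each. Hmgcs1 held 2 CCAAT boxes and the sterol response element core TCACCCCAC, and passed in no comparison. A match is a description of the letters in the window and was not tied to binding of any factor.

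For comparison, 2 promoters of genes that rose are shown. Plin2 (chr4:86670060-86670239, minus strand) held 1 CCAAT box, in capitals. Abca1 (chr4:53159896-53160075, minus strand) held no CCAAT box in its stretch, and its capitals mark CACGTG, in which the hypoxia response element core ACGTG lies on both strands and overlaps itself. Such cores, searched as ACGTG and GCGTG on both strands, were in 17 of the 30 first-listed windows of the 40 genes (56.7%). They were in 43.8% of all windows and in 49.2% of first-listed windows of protein-coding genes. They also occurred in the windows of Plin2, Cyp51, Msmo1, Hsd17b7 and Sc5d, where they are not marked, so the core is not particular to Abca1.
Plin2: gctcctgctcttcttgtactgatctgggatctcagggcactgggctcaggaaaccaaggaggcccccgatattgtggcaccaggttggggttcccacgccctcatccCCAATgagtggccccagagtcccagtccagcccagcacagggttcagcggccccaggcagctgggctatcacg
Abca1: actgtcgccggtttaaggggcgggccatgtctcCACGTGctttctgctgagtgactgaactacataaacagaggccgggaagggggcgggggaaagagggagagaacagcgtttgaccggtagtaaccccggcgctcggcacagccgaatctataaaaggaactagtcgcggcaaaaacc

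Total counts lay between 26752780 and 58368283 per library. Levels are CPM, reads scaled to a common library size with trimmed-mean (TMM) factors, and libraries are listed as S7, S8 and S9 for IL5Tg, S1, S2 and S3 for mdx_IL5Tg, and S4, S5 and S6 for mdx. The eosinophil receptor gene Ccr3 was between 809 and 1441 CPM in all 9 libraries, and the sorted marker Siglecf between 129 and 584. The summed level of 10 eosinophil markers was 5674 to 15901 CPM in IL5Tg, 5078 to 5521 in mdx_IL5Tg and 2107 to 2910 in mdx. The sum of 5 fibroblast genes was 617 to 1420, 504 to 2004 and 3021 to 7598 CPM in the same order, and that of 11 macrophage genes 1664 to 1983, 2584 to 2802 and 1857 to 2564. The 8 cycling genes summed to 106 to 482, 41.4 to 59.6 and 50.04 to 107 CPM, with IL5Tg S7 the highest library. Muscle fibre genes (8) summed to at most 63.9 CPM. Of 8 adipocyte genes, Lep was at 0 in every library, Adipoq reached at most 0.237 CPM, and Fabp4, which other cells also make, gave nearly all of a sum of 48.4 to 144 CPM. Genes that the sort selects against (6) summed to 56.3 to 63.2 CPM in IL5Tg, 219 to 377 in mdx_IL5Tg and 283 to 374 in mdx, with Itgax, which encodes CD11c, between 41.3 and 259 CPM. By edgeR calls, 5, 8 and 9 of the 11 macrophage genes were higher in mdx_IL5Tg against IL5Tg, mdx against mdx_IL5Tg and mdx against IL5Tg. In the same order, 0, 4 and 4 of the 5 fibroblast genes, 4, 6 and 8 of the 8 muscle fibre genes and 5, 1 and 5 of the 6 genes the sort selects against were higher. Of the 8 cycling genes 6, 0 and 3 were lower, and of the 10 eosinophil markers 0, 2 and 7 were lower. The median log2 change of these 10 markers was -2.41, -1.46 and -3.83. Beside the 0, 6 of the 10 had an unadjusted edgeR p under 0.05 in the lower direction and 3 in the higher. Of the 15886 genes tested, 2254 and 2139 did. In the other direction, 0, 1 and 0 macrophage genes and 0, 1 and 1 genes the sort selects against were lower, and 0, 1 and 0 cycling genes were higher. Of all genes tested, 4.35%, 11.5% and 11.8% were called higher and 2.87%, 10.1% and 8.96% lower. The macrophage sum was lower in mdx than in mdx_IL5Tg while 8 of its genes were called higher and 1 lower. The part of these other cells and of cell division in the results below was not tested.

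In mdx_IL5Tg against IL5Tg, 7 of the 40 genes rose and none fell. Of all genes tested, 4.35% were called higher and 2.87% lower in this comparison (edgeR's quasi-likelihood test, Benjamini-Hochberg adjusted p under 0.05). Beside that count of 0, 11 of the 40 had an unadjusted p under 0.05 in the lower direction with edgeR, while DESeq2 called 4 lower and limma voom 1. Of the 15886 genes tested, 2254 had such an unadjusted p, and DESeq2 called 1257 lower and limma voom 656. In mdx against mdx_IL5Tg, 3 rose and 11 fell, beside 11.5% and 10.1% of all genes, and in mdx against IL5Tg, 5 rose and 12 fell, beside 11.8% and 8.96%. By share of the 40, the 3 rises are below that of all genes and the 5 are close to it. The median log2 change of the 40 genes was -0.11, -0.39 and -0.40 in these comparisons, and that of all genes tested -0.05, 0.13 and 0.01. The 3 comparisons share libraries, so their values are given side by side and are not independent. Leaving out mdx_IL5Tg S1 brought the 7 rises in the first comparison down to 2 and the 11 falls in the second to 6. Over all genes tested, that step brought the rises from 691 of 15886 to 108 of 16308 and the falls from 1603 to 1092. The first comparison had 4 rises without IL5Tg S7 or S8 or mdx_IL5Tg S2, and 3 without IL5Tg S9. All genes tested had between 200 and 295 rises in these fits. The rises of mdx over mdx_IL5Tg came to 1 without mdx_IL5Tg S1 or S3 or mdx S4 or S6. In these fits the rises over all genes came from 1830 to between 429 and 945. The rises of mdx over IL5Tg came to 3 without IL5Tg S8 or S9 and to 2 without mdx S4, where those over all genes came from 1874 to between 948 and 1149. In the lower direction mdx_IL5Tg against IL5Tg had 2 calls without IL5Tg S8 and 3 without mdx S5. All genes had 456 falls in the main fit, 174 without IL5Tg S8 and 1084 without mdx S5.

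**Figure D1:**
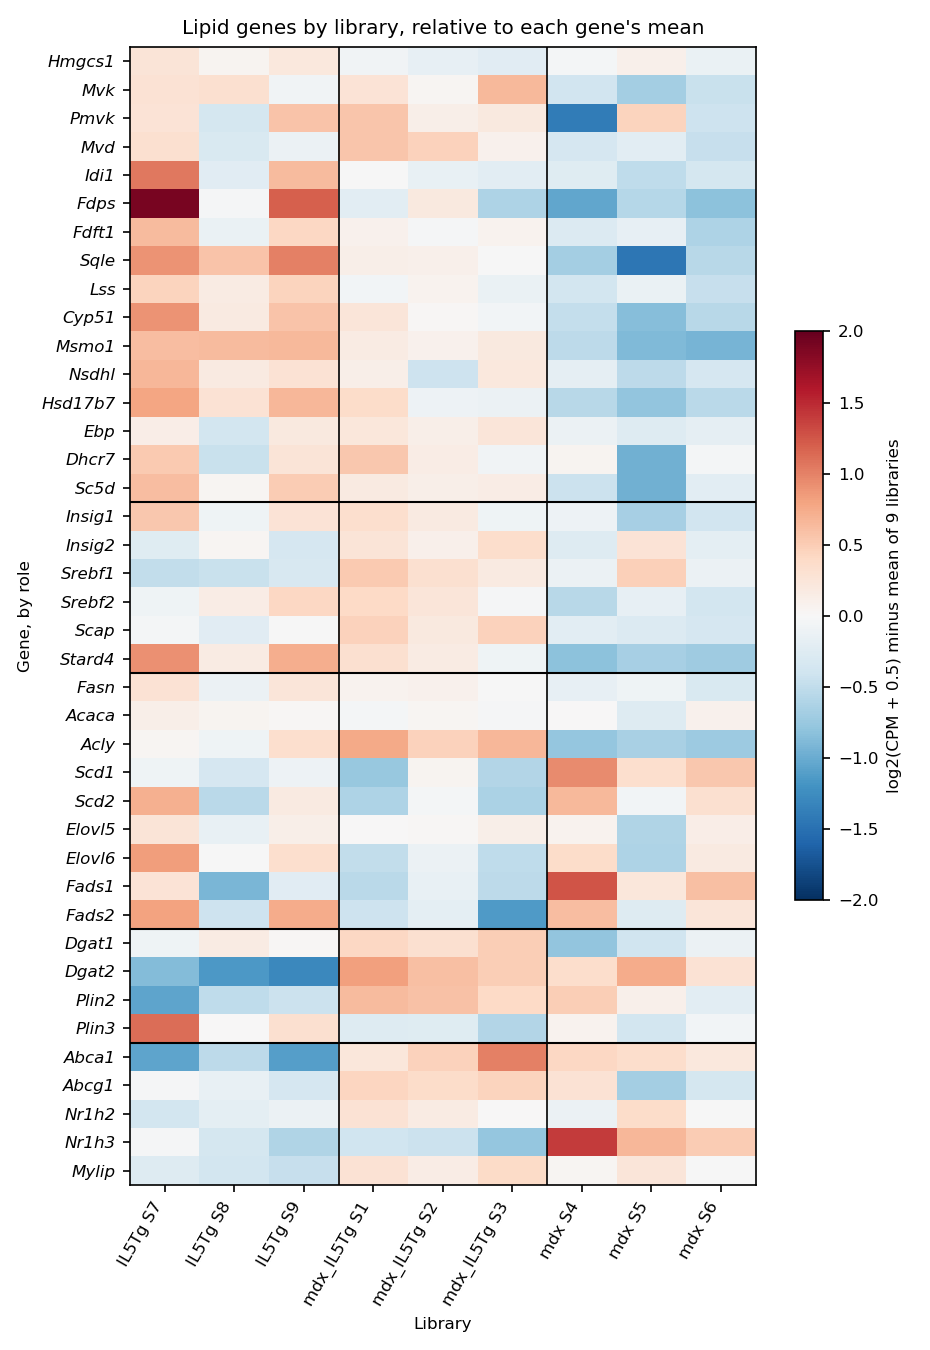
Level of each of the 40 genes (rows, ordered by role, with lines between roles) in each of the 9 libraries (columns), as log2(CPM + 0.5) minus the gene's mean over the libraries; red is above and blue below that mean. Sterol synthesis genes in the top block are mostly blue in the 3 mdx libraries, while Dgat2, Plin2 and Abca1 are blue in the 3 IL5Tg libraries.

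**Figure D2:**
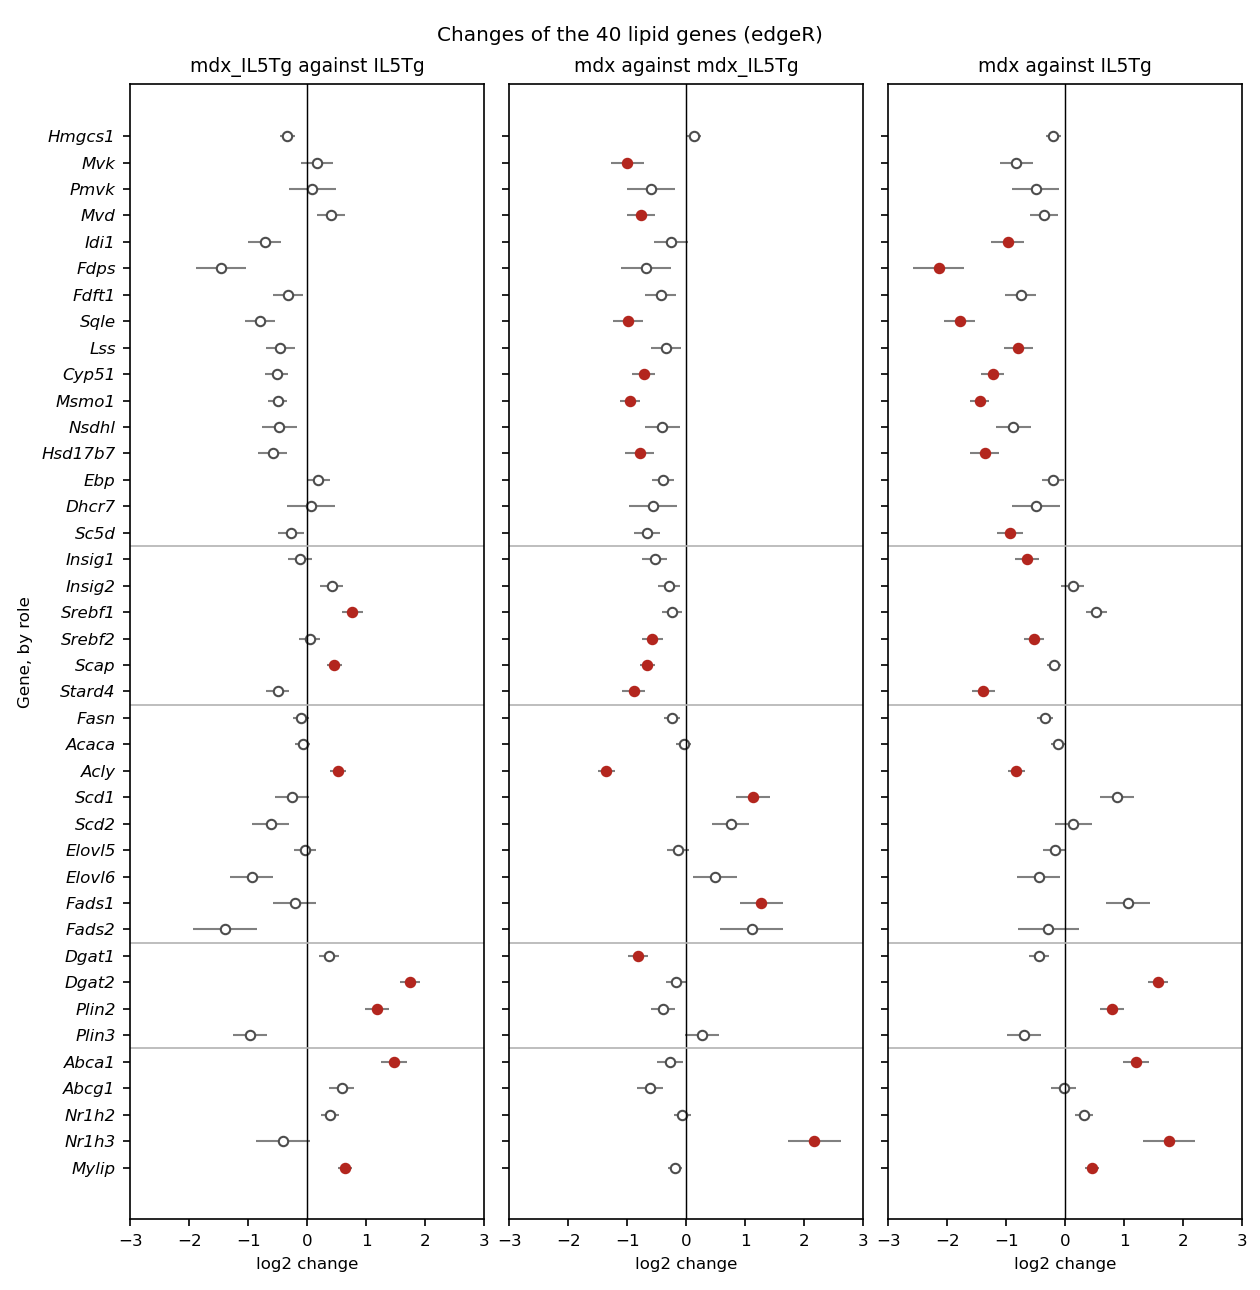
Change of each of the 40 genes in the 3 comparisons on a log2 axis, with points for the edgeR estimate and bars for its standard error; filled red points passed an adjusted p of 0.05 and open points did not. The 16 sterol synthesis genes in the top block lie left of 0 in mdx against IL5Tg, where 8 of them passed.

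Of the 16 sterol synthesis genes, 6 fell in mdx against mdx_IL5Tg and 8 fell in mdx against IL5Tg, beside 10.1% and 8.96% of all genes. Summed over the 16 genes, the level was 270, 178 and 240 CPM in IL5Tg, 189, 171 and 168 in mdx_IL5Tg, and 127, 129 and 126 in mdx. Every mdx library was below every other library, and mdx_IL5Tg and IL5Tg overlapped through IL5Tg S8. By edgeR none of the 16 rose in either comparison, with 0 and 0 at an unadjusted p under 0.05 in the higher direction, and DESeq2 and limma voom called none higher. Hmgcs1 was called higher in mdx against mdx_IL5Tg with library totals only.

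By median, the 16 genes changed by -0.39 in mdx_IL5Tg against IL5Tg, by -0.63 in mdx against mdx_IL5Tg and by -0.85 in mdx against IL5Tg on the log2 scale. Estimates were negative for 11, 15 and 16 of the 16, and the groups did not overlap, with the first named lower, for 4, 10 and 11. Over all genes tested, 16.4%, 18.8% and 19.7% lay wholly below in these comparisons. In mdx_IL5Tg against IL5Tg none of the 16 was called in edgeR, 7 had an unadjusted p under 0.05 in the lower direction and 0 in the higher, and 3 were called lower by DESeq2 and 1 by limma voom. Of the 15886 genes tested, 2254 and 2139 had such an unadjusted p in the lower and higher direction. DESeq2 called 1257 of them lower and limma voom 656. Scaling by library totals alone moved the median of all genes to -0.27, 0.46 and 0.12; relative to that median the 16 genes stood at -0.34, -0.77 and -0.86, against -0.34, -0.76 and -0.87 with TMM. Under that scaling the calls of the 16 in mdx against mdx_IL5Tg came to 1 lower and 1 higher, beside 746 lower and 4007 higher of all 15886 genes.

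In mdx against IL5Tg the largest falls were those of Fdps, Sqle, Msmo1, Hsd17b7 and Cyp51. Msmo1 encodes a methylsterol monooxygenase that takes part in removing methyl groups from the sterol ring. It was at 22.3, 22.5 and 22.7 CPM in IL5Tg, 16.1, 15.2 and 16.6 in mdx_IL5Tg, and 9.84, 7.56 and 7.31 in mdx. The 3 groups did not overlap and the spread within each was small. Msmo1 fell by 1.45 ± 0.16 (SE) on the log2 scale in mdx against IL5Tg (edgeR adjusted p = 0.00026) and by 0.95 ± 0.16 in mdx against mdx_IL5Tg (adjusted p = 0.0032). Its difference in mdx_IL5Tg against IL5Tg, -0.50 ± 0.16, did not pass (adjusted p = 0.081).

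Sqle, squalene epoxidase, a rate-controlling enzyme of the pathway, showed the same order of groups. It was at 15.4, 12.1 and 16.5 CPM in IL5Tg, 8.71, 8.59 and 7.96 in mdx_IL5Tg, and 4.79, 2.61 and 5.26 in mdx, again without overlap. Its fold in mdx against IL5Tg was 0.289 (log2 -1.79 ± 0.26, edgeR adjusted p = 0.0012), and in mdx against mdx_IL5Tg 0.503 (log2 -0.99 ± 0.26, adjusted p = 0.021). The second call was lost with library totals only (adjusted p = 0.10).

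Fdps, farnesyl diphosphate synthase, which makes the branch-point lipid of the pathway, had the largest fall of the 40 genes in mdx against IL5Tg. It was at 29.0, 7.27 and 17.5 CPM in IL5Tg, 6.30, 8.56 and 4.65 in mdx_IL5Tg, and 3.35, 4.85 and 3.98 in mdx. The IL5Tg libraries were widely spread, with S7 the highest, and overlapped mdx_IL5Tg, which in turn overlapped mdx; IL5Tg and mdx did not overlap. The fold in mdx against IL5Tg was 0.226 (log2 -2.14 ± 0.43, edgeR adjusted p = 0.0065), and that in mdx_IL5Tg against IL5Tg, log2 -1.46 ± 0.42, did not pass (adjusted p = 0.059). IL5Tg S7 was also the library with the highest sum of cycling genes, at 482 CPM, and the highest level of the granule protein gene Prg2, at 6997 CPM; the part of these in the fall of Fdps was not tested, and the call held without S7.

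Cyp51, lanosterol demethylase, was at 44.2, 26.7 and 35.1 CPM in IL5Tg, 27.8, 23.9 and 22.6 in mdx_IL5Tg, and 16.7, 12.8 and 15.7 in mdx. The mdx libraries lay below all others, and the other groups overlapped. It fell in mdx against IL5Tg (log2 -1.23 ± 0.20, edgeR adjusted p = 0.002) and in mdx against mdx_IL5Tg (log2 -0.72 ± 0.20, adjusted p = 0.026). The second call ended without mdx_IL5Tg S1 and with library totals only (adjusted p between 0.065 and 0.21).

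Hsd17b7, a sterol reductase that acts with Msmo1, was at 7.94, 5.42 and 7.23 CPM in IL5Tg, 5.75, 4.03 and 3.97 in mdx_IL5Tg, and 2.81, 2.31 and 2.845 in mdx, where it was lowest in every library. It fell in mdx against IL5Tg (log2 -1.37 ± 0.25, edgeR adjusted p = 0.004) and in mdx against mdx_IL5Tg (log2 -0.79 ± 0.25, adjusted p = 0.045). That second call ended without mdx_IL5Tg S1 or any 1 mdx library, with an adjusted p of 0.05 to 0.21 over the settings that ended it. Sc5d, a sterol desaturase of the late pathway, ranged from 17.7 to 26.8, from 18.7 to 19.6 and from 8.64 to 14.9 CPM in IL5Tg, mdx_IL5Tg and mdx. It fell in mdx against IL5Tg (log2 -0.93 ± 0.22, adjusted p = 0.014), and its difference from mdx_IL5Tg, -0.66 ± 0.22, did not pass (adjusted p = 0.052).

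Idi1, the isomerase that makes the second building block of isoprenoids, ranged from 8.50 to 21.4 CPM in IL5Tg, from 8.67 to 10.1 in mdx_IL5Tg and from 6.96 to 8.48 in mdx. Lss, lanosterol synthase, ranged from 3.05 to 3.84, from 2.40 to 2.85 and from 1.81 to 2.41 CPM in the same order. Both fell in mdx against IL5Tg, Idi1 by 0.97 ± 0.29 on the log2 scale (edgeR adjusted p = 0.034) and Lss by 0.79 ± 0.25 (adjusted p = 0.046). The call of Idi1 ended without IL5Tg S7 or S9 or any 1 mdx library, with an adjusted p of up to 0.19. That of Lss ended without any library other than mdx_IL5Tg S3 or mdx S5, with an adjusted p of up to 0.16.

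Of the early enzymes, Mvk and Mvd fell in mdx against mdx_IL5Tg. Mvk, mevalonate kinase, ranged from 2.57 to 3.54 CPM in IL5Tg, from 2.82 to 4.57 in mdx_IL5Tg and from 1.51 to 1.99 in mdx, and Mvd, which makes isopentenyl diphosphate, from 5.095 to 8.16, from 6.79 to 9.60 and from 4.53 to 5.46. In mdx against mdx_IL5Tg Mvk fell by 1.00 ± 0.28 (edgeR adjusted p = 0.029), the largest estimate of the 16 genes in that comparison, and Mvd fell by 0.77 ± 0.24 (adjusted p = 0.040). The Mvk call ended without mdx_IL5Tg S1 or S3 or any 1 mdx library (adjusted p up to 0.10), and that of Mvd without mdx_IL5Tg S1 or S2 or mdx S4 or S6 (adjusted p up to 0.19).

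The first enzyme of the list did not follow the later ones. Hmgcs1, which makes HMG-CoA, was at 43.1, 37.6 and 42.0 CPM in IL5Tg, 34.2, 32.2 and 30.8 in mdx_IL5Tg, and 35.0, 38.8 and 32.7 in mdx. Its differences were -0.34 ± 0.13, 0.13 ± 0.13 and -0.20 ± 0.13 in the 3 comparisons, with edgeR adjusted p of 0.12, 0.48 and 0.27. For mdx against mdx_IL5Tg the 95% interval was -0.11 to 0.38, which does not reach the fall measured for Msmo1; with library totals only, the difference was 0.45 and passed (adjusted p = 0.024). The other genes that passed in no comparison were Pmvk, phosphomevalonate kinase (4.86 to 20.5 CPM over the 9 libraries), Fdft1, squalene synthase (2.80 to 7.30), Nsdhl, which acts with Msmo1 (1.61 to 4.29), Ebp, a sterol isomerase (8.83 to 13.7), and Dhcr7, a late sterol reductase (1.07 to 3.95).

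**Figure D3:**
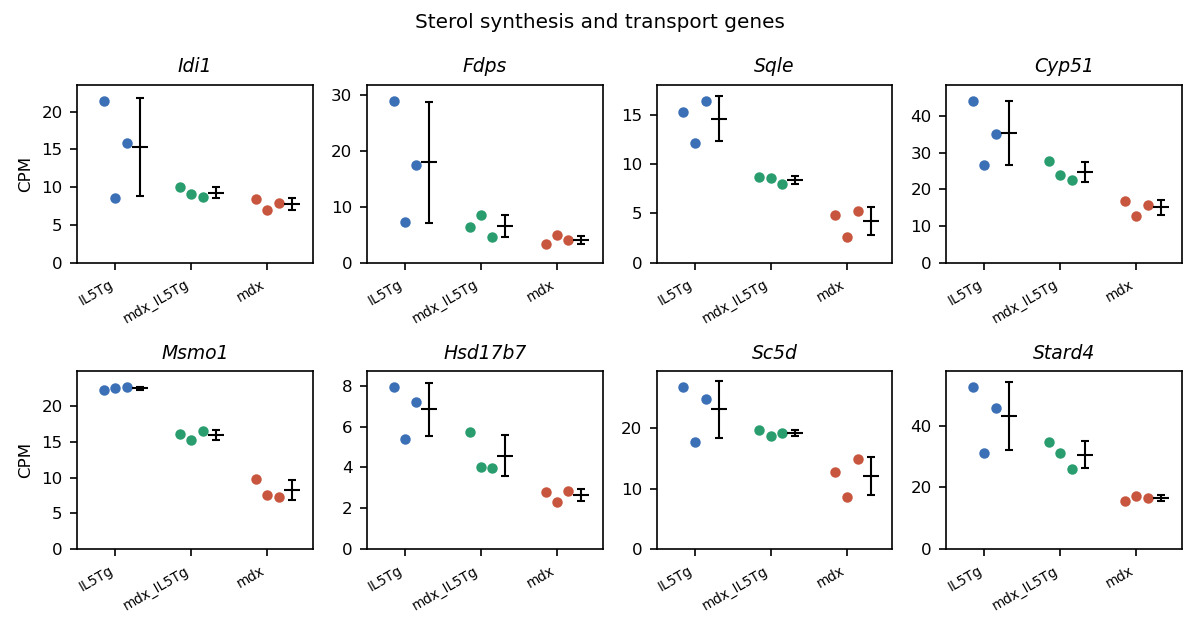
CPM of 8 sterol genes in each library (points, coloured by group) with the group mean ± SD in black, on axes that start at 0. All 3 mdx libraries lie below all 6 others for each gene shown except Fdps, where mdx S5 (4.85 CPM) is above mdx_IL5Tg S3 (4.65 CPM).

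Of the 6 sterol sensing genes, 3 fell in each comparison of mdx and 2 rose with the mutation in transgenic mice. Of all genes, 10.1% fell in mdx against mdx_IL5Tg, 8.96% fell in mdx against IL5Tg and 4.35% rose in mdx_IL5Tg against IL5Tg. Stard4, a carrier that moves cholesterol between membranes, was at 52.5, 31.1 and 45.9 CPM in IL5Tg, 34.7, 31.1 and 25.9 in mdx_IL5Tg, and 15.5, 17.3 and 16.7 in mdx. All mdx libraries lay below the rest. It fell by 1.39 ± 0.20 on the log2 scale in mdx against IL5Tg (edgeR adjusted p = 0.001) and by 0.89 ± 0.20 in mdx against mdx_IL5Tg (adjusted p = 0.01); the latter did not pass with library totals only (adjusted p = 0.061).

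The 2 SREBP genes did not move alike. Srebf1, whose protein favours fatty acid genes, was at 49.3, 51.1 and 56.1 CPM in IL5Tg, 100.1, 87.5 and 79.0 in mdx_IL5Tg, and 64.4, 97.5 and 64.5 in mdx. Srebf2, whose protein favours sterol genes, was at 278, 326 and 391, then 389, 347 and 288, then 200, 262 and 228 CPM. For Srebf1 IL5Tg was the lowest group without overlap, and for Srebf2 mdx was. Srebf1 rose in mdx_IL5Tg against IL5Tg by 0.77 ± 0.17 (edgeR adjusted p = 0.032), and its difference in mdx against IL5Tg was 0.53 ± 0.17 (adjusted p = 0.052). Srebf2 fell in mdx against mdx_IL5Tg by 0.57 ± 0.17 (adjusted p = 0.037) and against IL5Tg by 0.53 ± 0.17 (adjusted p = 0.0499). These were sensitive to single libraries: the Srebf1 call ended without any 1 IL5Tg library or mdx_IL5Tg S1 or S2 (adjusted p up to 0.15), and both Srebf2 calls ended without mdx_IL5Tg S1 or S2 or mdx S4 or S6, the second also without IL5Tg S8 or S9 (adjusted p up to 0.21 and 0.16).

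Scap, the escort of the SREBPs, was highest in mdx_IL5Tg, at 107.0, 88.7 and 107.0 CPM against 75.5, 66.6 and 77.4 in IL5Tg and 66.9, 63.9 and 61.3 in mdx. It fell in mdx against mdx_IL5Tg (log2 -0.66 ± 0.12, edgeR adjusted p = 0.005), a call that library totals alone ended (adjusted p = 0.063). It rose in mdx_IL5Tg against IL5Tg (log2 0.46 ± 0.12, adjusted p = 0.047), and that call ended without any 1 library except mdx S4 and S5 (adjusted p up to 0.21 over all settings). Insig1, which retains Scap and is itself induced by SREBPs, ranged from 22.6 to 35.2, from 22.5 to 30.5 and from 14.9 to 22.2 CPM in IL5Tg, mdx_IL5Tg and mdx. It fell in mdx against IL5Tg (log2 -0.65 ± 0.21, adjusted p = 0.048), not so without IL5Tg S7 or S9 or mdx S5 or S6 (adjusted p up to 0.24). Its relative Insig2 passed in no comparison and ranged from 12.0 to 19.5 CPM.

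In fatty acid synthesis the citrate-cleaving enzyme moved apart from the synthase and the carboxylase. Acly, which splits cytosolic citrate to give the acetyl-CoA for both sterols and fatty acids, was at 238, 217 and 290.0 CPM in IL5Tg, 389, 318 and 364 in mdx_IL5Tg, and 135, 146 and 138 in mdx. None of the groups overlapped. Acly fell by 1.35 ± 0.14 on the log2 scale in mdx against mdx_IL5Tg (edgeR adjusted p = 0.00018) and by 0.83 ± 0.14 in mdx against IL5Tg (adjusted p = 0.0027). Its rise in mdx_IL5Tg against IL5Tg was 0.53 ± 0.14 (adjusted p = 0.049) and ended without any 1 library except mdx S5 (adjusted p up to 0.18 over all settings).

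Fasn, fatty acid synthase, ranged from 47.5 to 62.7 CPM in IL5Tg, from 51.2 to 54.7 in mdx_IL5Tg and from 41.4 to 48.4 in mdx, and Acaca, acetyl-CoA carboxylase, from 28.7 to 37.2 over all libraries. Neither passed in any comparison. For Fasn the mdx libraries lay below all mdx_IL5Tg libraries, the direction of Acly, so a smaller fall is not shown to be absent. For Acaca the 95% intervals of the log2 difference were -0.33 to 0.17, -0.29 to 0.21 and -0.36 to 0.14, none of which reaches the falls of Acly.

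Desaturase genes were low and leaned the other way. Scd1, a stearoyl-CoA desaturase, was at 4.10, 3.38 and 4.03 CPM in IL5Tg, 2.39, 4.56 and 2.74 in mdx_IL5Tg, and 8.86, 5.66 and 6.61 in mdx. Fads1, a desaturase of polyunsaturated fatty acids, was at 5.50, 2.14 and 3.73, then 2.90, 3.98 and 2.95, then 11.4, 5.32 and 7.04 CPM. In mdx against mdx_IL5Tg both rose, Scd1 by 1.13 ± 0.29 (edgeR adjusted p = 0.020) and Fads1 by 1.28 ± 0.37 (adjusted p = 0.033), with mdx S4 the highest library for both. Without mdx S4 the Fads1 difference was 0.84, and the calls of both ended without mdx_IL5Tg S1 or S3 or mdx S4 or S6, that of Fads1 also without IL5Tg S9 (adjusted p up to 0.12 for Scd1 and 0.16 for Fads1).

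Scd1 is known for high expression in adipocytes. The adipocyte sum was 116 to 144 CPM in mdx and 48.4 to 113 in mdx_IL5Tg, nearly all of it Fabp4, and the macrophage complement gene C1qa was 14.1 to 27.5 CPM in mdx and 1.31 to 8.485 in mdx_IL5Tg; their part in these rises was not tested. The remaining genes of this role passed in no comparison. Over the 9 libraries Scd2, a second stearoyl-CoA desaturase, ranged from 12.4 to 32.1 CPM, the elongase Elovl5 from 63.6 to 116, the elongase Elovl6 from 1.51 to 4.99, and the desaturase Fads2 from 0.339 to 2.69.

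Of the 4 triglyceride and droplet genes, Dgat2 and Plin2 were higher in both groups with the mutation than in IL5Tg. By edgeR, 4.35% of all genes rose in mdx_IL5Tg and 11.8% in mdx against IL5Tg. Dgat1 and Plin3 were not called against IL5Tg by edgeR in the main fit. DESeq2 called 2 of the 4 higher and the other 2, Dgat1 and Plin3, lower in mdx against IL5Tg. Of the 15886 genes tested, it called 2220 higher and 2207 lower there. Dgat2, which joins the last fatty acid to make triglyceride, was at 39.1, 32.1 and 28.9 CPM in IL5Tg, 127, 109 and 101 in mdx_IL5Tg, and 91.2, 120.2 and 88.1 in mdx. IL5Tg lay below both other groups, which overlapped. Dgat2 rose 3.37-fold in mdx_IL5Tg against IL5Tg (log2 1.75 ± 0.17, edgeR adjusted p = 0.00087) and 2.99-fold in mdx against IL5Tg (log2 1.58 ± 0.17, adjusted p = 0.00018). In mdx against mdx_IL5Tg its difference was -0.17 ± 0.16, with a 95% interval of -0.49 to 0.15.

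Plin2, the coat protein found on droplets of most cells, was at 57.2, 83.9 and 87.8 CPM in IL5Tg, 185, 180 and 157 in mdx_IL5Tg, and 167, 127 and 103 in mdx. Every library with the mutation was above every IL5Tg library. Plin2 rose by 1.19 ± 0.20 in mdx_IL5Tg against IL5Tg (edgeR adjusted p = 0.013) and by 0.80 ± 0.20 in mdx against IL5Tg (adjusted p = 0.020). The first call ended without mdx_IL5Tg S1 (adjusted p = 0.058), and the second without IL5Tg S7 or mdx S4 (adjusted p up to 0.085).

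Dgat1, the other enzyme of that last step, followed a different order. It was at 482, 574 and 521 CPM in IL5Tg, 683, 643 and 720 in mdx_IL5Tg, and 299, 388 and 471 in mdx, without overlap between groups. It fell in mdx against mdx_IL5Tg (log2 -0.82 ± 0.17, edgeR adjusted p = 0.0074), and its differences against IL5Tg did not pass (0.38 ± 0.17 for mdx_IL5Tg, adjusted p = 0.17, and -0.44 ± 0.17 for mdx, adjusted p = 0.080). Per length of exon, Dgat1 had the highest mean level of the 40 genes in every group, at 172, 223 and 126 CPM per kilobase in IL5Tg, mdx_IL5Tg and mdx. Plin3, a perilipin that moves between cytosol and new droplets, passed in no comparison of the main fit and ranged from 5.38 to 18.5 CPM, highest in IL5Tg S7. In mdx_IL5Tg against IL5Tg its log2 difference was -0.96, the only negative one of the 4 genes. Plin3 was called lower there by DESeq2, with library totals only, with no filter and without mdx S5.

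Of the 5 liver X receptor and efflux genes, 2 rose in mdx_IL5Tg against IL5Tg and 3 in mdx against IL5Tg, beside 4.35% and 11.8% of all genes. Abca1, the pump that loads cholesterol onto apolipoproteins, was at 274, 395 and 265 CPM in IL5Tg, 667, 779 and 1141 in mdx_IL5Tg, and 759, 721 and 660.4 in mdx. The IL5Tg libraries lay below all others. Abca1 rose 2.77-fold in mdx_IL5Tg (log2 1.47 ± 0.22, edgeR adjusted p = 0.007) and 2.29-fold in mdx (log2 1.20 ± 0.22, adjusted p = 0.0039) against IL5Tg, and mdx and mdx_IL5Tg differed by -0.27 ± 0.21 (95% interval -0.69 to 0.15).

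Mylip, an E3 ubiquitin ligase that marks lipoprotein receptors for degradation, was at 84.1, 77.8 and 73.5 CPM in IL5Tg, 123, 112 and 132 in mdx_IL5Tg, and 103, 119 and 100.2 in mdx. IL5Tg was again the lowest group without overlap. It rose in mdx_IL5Tg against IL5Tg by 0.64 ± 0.12 (edgeR adjusted p = 0.021), a call that ended without IL5Tg S9 or mdx_IL5Tg S1 (adjusted p up to 0.093). In mdx against IL5Tg it rose by 0.46 ± 0.12 (adjusted p = 0.026), a call that ended without any 1 library except mdx S5 (adjusted p up to 0.15).

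Nr1h3, which encodes the alpha liver X receptor typical of macrophages, had the lowest mean level per length of the 40 genes in IL5Tg and mdx_IL5Tg. It was at 0.864, 0.584 and 0.410 CPM in IL5Tg, 0.553, 0.529 and 0.313 in mdx_IL5Tg, and 3.16, 1.71 and 1.47 in mdx, from counts of 11 to 28 in the first 6 libraries and 51 to 151 in mdx. It rose in mdx against mdx_IL5Tg by 2.17 ± 0.45 (edgeR adjusted p = 0.0078) and against IL5Tg by 1.76 ± 0.45 (adjusted p = 0.019); the second call ended without IL5Tg S8 or S9 or mdx S4 (adjusted p up to 0.089). The macrophage gene C1qa was 0.454 to 1.12 CPM in IL5Tg, 1.31 to 8.485 in mdx_IL5Tg and 14.1 to 27.5 in mdx, and its part in the rise of Nr1h3 was not tested. The beta receptor gene Nr1h2, present in most cells, was at 49.1 to 81.9 CPM and passed in no comparison.

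The pump gene Abcg1, which exports cholesterol to mature lipoprotein particles, was highest in mdx_IL5Tg, at 55.5 to 58.8 CPM, against 33.9 to 42.1 in IL5Tg and 26.6 to 52.5 in mdx. It passed in no comparison (log2 0.59 ± 0.21 in mdx_IL5Tg against IL5Tg, edgeR adjusted p = 0.11; -0.61 ± 0.21 in mdx against mdx_IL5Tg, adjusted p = 0.063).

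**Figure D4:**
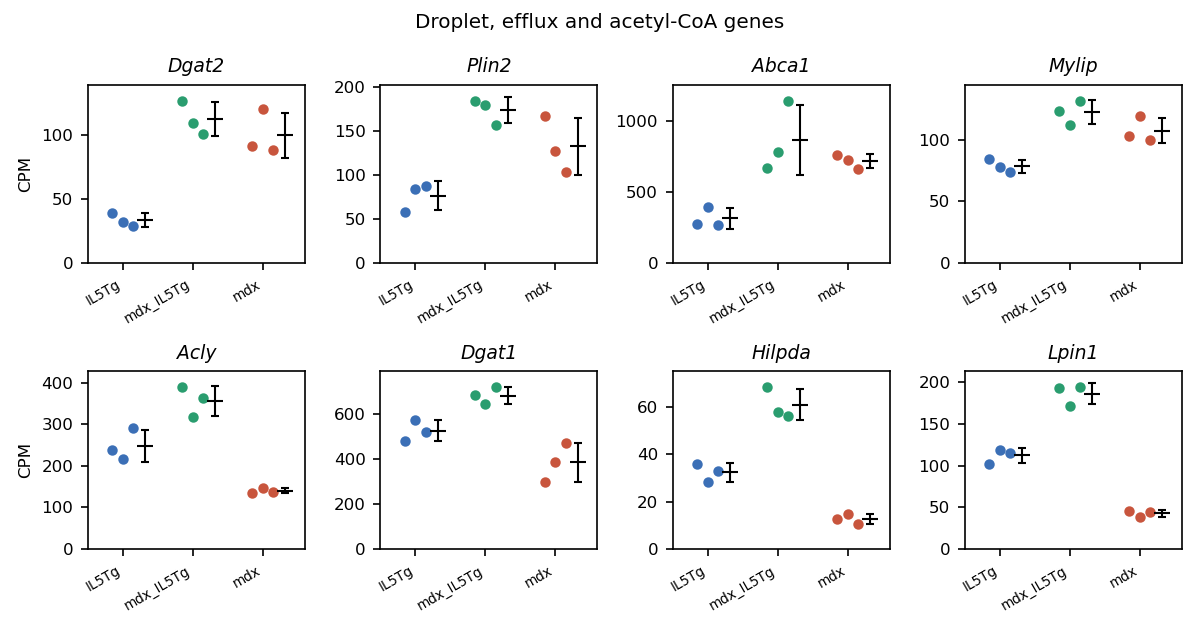
CPM of 8 droplet, efflux and acetyl-CoA genes in each library (points, coloured by group) with the group mean ± SD in black, on axes that start at 0. For Dgat2, Plin2, Abca1 and Mylip the IL5Tg libraries lie below all others, while for Acly, Dgat1, Hilpda and Lpin1 the mdx_IL5Tg libraries are highest and the mdx libraries lowest.

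Within pairs of related genes, the ratio of levels per exon length was compared by library as a description. Dgat1 exceeded Dgat2 by 16.2 ± 3.29 times in IL5Tg (SD, n = 3), 6.19 ± 0.917 in mdx_IL5Tg and 3.99 ± 1.22 in mdx. The IL5Tg libraries, at 12.4 to 18.2, lay above all others. Plin2 exceeded Plin3 by 3.33 to 10.8 times in IL5Tg, 27.9 to 31.4 in mdx_IL5Tg and 13.9 to 21.8 in mdx, with no overlap. Srebf2 exceeded Srebf1 by 4.42 to 5.46, 2.86 to 3.11 and 2.11 to 2.77 times in the same order, also with no overlap. For Nr1h2 over Nr1h3 the mdx ratios, 13.9 to 36.0, lay below the 42.6 to 153 of the other libraries. A ratio within a pair shows unequal change and not which gene changed. For Scd2 over Scd1 mdx, at 2.97 to 3.31, lay below the 3.49 to 7.01 of the others. For Abca1 over Abcg1 IL5Tg, at 4.59 to 7.16, lay below the others, at 8.07 to 19.1, and for Fads1 over Fads2 IL5Tg, at 0.992 to 1.67, lay below 2.29 to 5.95. Neighbouring groups overlapped for Insig1 over Insig2 and for Elovl5 over Elovl6.

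**Figure D5:**
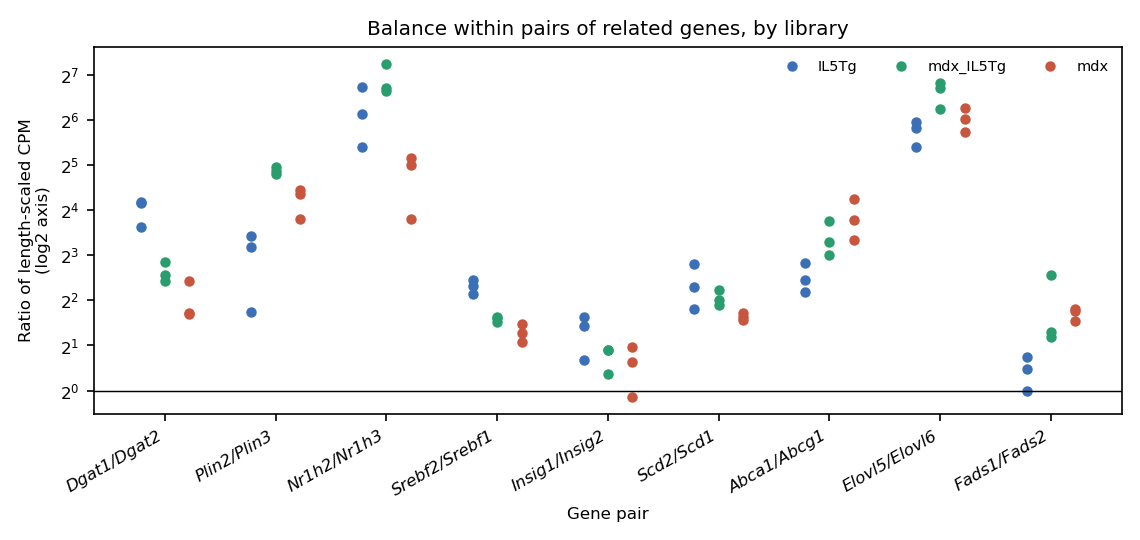
Ratio of length-scaled CPM within 9 pairs of related genes (log2 axis), 1 point per library, coloured by group; the line marks a ratio of 1. Dgat1 over Dgat2 is 12.4 to 18.2 in IL5Tg and 3.26 to 7.21 in the other libraries.

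A wider list of 61 further lipid genes was examined, of which 57 were tested (Plin1, Plin5, Cidec and Ppara were too low). In mdx_IL5Tg against IL5Tg 10 rose and 1 fell, in mdx against mdx_IL5Tg 6 rose and 15 fell, and in mdx against IL5Tg 9 rose and 10 fell. Over all genes tested, 4.35% and 2.87%, 11.5% and 10.1%, and 11.8% and 8.96% rose and fell in these comparisons, so the 6 and 9 rises of mdx are close to the shares of all genes. The 57 genes had median log2 changes of 0.24, -0.10 and 0.17. In mdx_IL5Tg against IL5Tg, 7 of 13 triglyceride and droplet genes rose and none fell (0 lower at an unadjusted edgeR p under 0.05). Leaving out mdx_IL5Tg S1 brought the 10 rises down to 1, and any 1 IL5Tg library or mdx_IL5Tg S2 to 3 or 4. In these fits the rises over all genes came from 691 to 108, and to between 200 and 295. The 6 rises of mdx over mdx_IL5Tg came to 2 or 3 without IL5Tg S9, mdx_IL5Tg S1 or S3, or mdx S4 or S6. Its 15 falls came to 8 without mdx_IL5Tg S1 and 9 without mdx S4. Over all genes these rises came from 1830 to between 429 and 1179, and these falls from 1603 to 1092 and 1282. The 9 rises of mdx over IL5Tg came to between 3 and 5 without any 1 IL5Tg library or mdx_IL5Tg S1. Those over all genes came from 1874 to between 948 and 1384 in these fits. Named below are, for each comparison, the called genes of this list with the largest changes.

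Of the triglyceride and droplet genes named by this rule, Hilpda, Lpin1 and G0s2 were highest in mdx_IL5Tg, and Gpat3 was highest in mdx. Hilpda, a hypoxia-induced inhibitor of lipolysis, was at 36.0, 28.1 and 32.9 CPM in IL5Tg, 68.3, 57.96 and 56.2 in mdx_IL5Tg, and 12.8, 14.8 and 10.4 in mdx. Lpin1, a phosphatidate phosphatase of triglyceride synthesis, was at 102, 119 and 115, then 192, 172 and 194, then 46.1, 37.9 and 44.5 CPM. Neither gene's groups overlapped. Both rose in mdx_IL5Tg against IL5Tg (Hilpda 0.91 ± 0.16, edgeR adjusted p = 0.016; Lpin1 0.73 ± 0.13, adjusted p = 0.014), calls that ended without mdx_IL5Tg S1 (adjusted p = 0.086 and 0.058). In mdx against mdx_IL5Tg Hilpda fell by 2.27 ± 0.17 (adjusted p = 1.5e-05) and Lpin1 fell by 2.12 ± 0.13 (adjusted p = 4.3e-06). G0s2, an inhibitor of adipose triglyceride lipase, ranged from 13.4 to 37.4, from 47.2 to 96.2 and from 26.6 to 37.2 CPM; it rose in mdx_IL5Tg against IL5Tg (1.43 ± 0.34, adjusted p = 0.036) and fell in mdx against mdx_IL5Tg (-1.12 ± 0.34, adjusted p = 0.039), calls that ended without IL5Tg S8 or S9 or mdx_IL5Tg S1 or S2, and without mdx_IL5Tg S1 or any 1 mdx library (adjusted p up to 0.16 and 0.17).

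Uptake genes differed among themselves. Slc27a4, a fatty acid transport protein, was at 393, 439.5 and 437 CPM in IL5Tg, 983, 892 and 908 in mdx_IL5Tg, and 555, 685 and 513 in mdx, without overlap, and rose by 1.13 ± 0.14 in mdx_IL5Tg against IL5Tg (edgeR adjusted p = 0.0032). Lpl, which releases fatty acids from lipoproteins, was at 16.9, 9.80 and 10.2, then 14.97, 25.0 and 10.1, then 81.5, 54.0 and 56.8 CPM. It rose in mdx by 1.94 ± 0.33 against mdx_IL5Tg (adjusted p = 0.0031) and by 2.38 ± 0.34 against IL5Tg (adjusted p = 0.00098). Slc27a1, a transporter abundant in muscle and fat, was at 0.522 to 1.56 CPM in the transgenic groups and 3.88 to 6.03 in mdx, and rose by 1.98 ± 0.42 against mdx_IL5Tg and 2.55 ± 0.44 against IL5Tg (adjusted p = 0.0085 and 0.0027). Fibroblast marker sums were 3021 to 7598 CPM in mdx and at most 2004 elsewhere, and muscle fibre sums 30.6 to 63.9 and at most 23.9; their part in these rises was not tested.

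Fabp5, a fatty acid binding protein, ranged from 3.99 to 8.96, from 5.30 to 11.1 and from 11.8 to 36.4 CPM in IL5Tg, mdx_IL5Tg and mdx. It rose in mdx against IL5Tg (1.89 ± 0.43, edgeR adjusted p = 0.013), a call that ended without IL5Tg S8 or S9 (adjusted p up to 0.057). Gpat3, which starts glycerolipid synthesis, had counts of 3 to 8 in IL5Tg, 18 to 44 in mdx_IL5Tg and 65 to 124 in mdx. It rose by 3.43 ± 0.49 in mdx against IL5Tg (adjusted p = 0.0011), by 1.90 ± 0.49 in mdx_IL5Tg against IL5Tg (adjusted p = 0.044) and by 1.52 ± 0.42 in mdx against mdx_IL5Tg (adjusted p = 0.028). At these counts the changes against IL5Tg rest on few reads. The call in mdx_IL5Tg against IL5Tg ended without any 1 library except mdx_IL5Tg S3 and mdx S5 (adjusted p up to 0.17), and that in mdx against mdx_IL5Tg without any 1 mdx_IL5Tg library or mdx S4 (adjusted p up to 0.12). Elovl7, an elongase, ranged from 2.27 to 4.13 CPM in IL5Tg and from 1.31 to 1.70 in mdx_IL5Tg, where it fell by 1.15 ± 0.30 (adjusted p = 0.046), a call that ended without any 1 library except IL5Tg S8 and mdx S5 (adjusted p up to 0.17).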

How the data were processed

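The authors deposited a table of expected counts from RSEM, 1 value per gene and library, without normalisation. Per the submitters' processing notes, cutadapt 2.10, STAR 2.5.3, RSEM 1.3.0, limma and the build mm10 were used; their settings, annotation and strand: not given in the sources used here. Values (6.03% not whole) were rounded, genes were kept by filterByExpr (minimum count 10) and libraries scaled by TMM. A single edgeR 4.0.16 fit in R 4.3.3 (quasi-likelihood, robust) held all 9 libraries. Benjamini-Hochberg adjustment ran over all genes tested, with a threshold of 0.05. Errors are standard errors from the F statistic, exon lengths are from GENCODE M21 (GRCm38), and the fit was tested on simulated data.

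Members and lists were chosen with earlier results of these data known. Members past the threshold are named with values, the others by range, and up to 6 called genes of the wider list per comparison by size of change; 1 gene that this rule selects is not reported here. Columns carry S numbers that the labels do not, so libraries were tied to groups only. As alternatives, a fit used RLE factors, library totals only, DESeq2 1.42.0, limma 3.58.1 voom, no filter on low counts, a minimum of 50 counts in 3 libraries, only the groups compared, or 1 library fewer. A fit without the pair IL5Tg S7 and mdx S5 was chosen after seeing the data. In mdx S5 0.383% of counts were mitochondrial, against 1.28% to 2.29% in the other libraries. Its log2 CPM correlated at 0.957 with S4 and 0.958 with S6, which correlated at 0.987 with each other. The part of this in the results was not tested.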

Additional observations from a re-analysis of the deposited data

How the results depend on the processing

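Of 89 changes called among the 40 genes and the wider list, 36 passed in every alternative and 0 reversed. Kept among the 40 genes were both calls of Abca1, Acly (mdx comparisons), Dgat2 and Msmo1, those of Cyp51, Fdps, Hsd17b7, Sqle and Stard4 in mdx against IL5Tg, and those of Dgat1 and Nr1h3 in mdx against mdx_IL5Tg.

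For mdx_IL5Tg against IL5Tg, leaving out 1 library gave 2 to 9 of the 40 genes higher and 0 to 3 lower, and 1 to 15 higher and 0 to 1 lower of the wider list. All genes tested had 108 to 1557 higher and 2 to 1084 lower in these fits. The 40 genes had 4 lower with library totals only, 3 with no filter, 4 with DESeq2, 1 with limma voom, 2 with only the groups compared and 1 without the pair IL5Tg S7 and mdx S5. In the same order, 981, 785, 1257, 656, 693 and 617 of all genes tested were lower. With library totals only the wider list had 3 higher and 2 lower, beside 311 and 981 of all genes. Without a filter, or without that pair, the wider list had 0 lower.

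For mdx against mdx_IL5Tg, leaving out 1 library gave 1 to 3 higher and 6 to 14 lower of the 40 genes, and 2 to 8 higher and 8 to 19 lower of the wider list. All genes tested had 429 to 2035 higher and 1092 to 2155 lower in these fits. Library totals only gave 5 higher and 3 lower of the 40 genes, and 10 higher and 8 lower of the wider list. That scaling called 4007 of all 15886 genes higher and 746 lower. Only the groups compared gave 3 higher in the wider list, beside 1188 of all genes. For mdx against IL5Tg, the ranges were 2 to 7 higher and 8 to 14 lower, and 3 to 8 higher and 7 to 10 lower. All genes tested had 948 to 1900 higher and 1013 to 1937 lower in these fits. Library totals only gave 8 of the 40 genes higher, beside 2408 of all genes. RLE factors gave 5 of the wider list higher, beside 1716 of all genes. The uncalled difference of Srebf1 in mdx against mdx_IL5Tg turned to 0.069 with library totals only, and that of Hmgcs1 lay between -0.0028 and 0.0997 with 1 library left out, lowest without mdx_IL5Tg S3. Fewer libraries give less power by construction; otherwise the cause was not tested.

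No paired analysis was possible because the columns carry S numbers and not the replicate numbers of the labels. With 3 libraries a group, differences that missed the threshold are not shown to be absent: the uncalled Fads2 difference in mdx_IL5Tg against IL5Tg was -1.40 ± 0.54 (edgeR adjusted p = 0.12).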
